A study of Mus musculus with 9 samples.

Results

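Transcription factors that give regions of the hypothalamus their identity were followed through RNA sequencing of mouse brain tissue under sevoflurane. They are the 9 genes Sim1, Otp, Nkx2-1, Nkx2-2, Nkx2-4, Nr5a1, Fezf1, Rax and Six6, chosen by name, and all 9 were among the 49585 genes of the deposited table. The tissue came from male wildtype C57BL/6J mice, an inbred laboratory strain, aged 8 to 15 weeks, and 3 groups of 3 libraries were sequenced. Control mice moved freely for 120 min and received no sevoflurane. Mice of the 0.7 MAC group inhaled 0.7 MAC sevoflurane for 120 min, and mice of the 2.0 MAC group inhaled 2.0 MAC for 30 min, a dose used to evoke gasping, followed by 0.7 MAC for 90 min. MAC is the minimum alveolar concentration, the unit of dose of an inhaled anesthetic. Both sevoflurane groups breathed pure oxygen, and whether the control mice did is not stated, so effects of the anesthetic and of the gas cannot be told apart in the comparisons with control. The tissue was what remained of the brain as the hypothalamic region once cortex, cerebellum and olfactory bulb had been taken away, while the extraction text of the labels names whole brain along with primary neurospheres, so the exact material is uncertain. The sources do not say if the libraries of a group are from different mice, and p-values therefore measure only the spread between libraries, which may be technical.

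The hypothalamus is built from many small nuclei, and during development each field of its progenitors and young neurons is marked by its own transcription factors, several of which stay on in the adult. Sim1, a basic helix-loop-helix PAS factor, and Otp, a homeodomain factor, are needed for the neuroendocrine neurons of the paraventricular and supraoptic nuclei, which make oxytocin, vasopressin, corticotropin-releasing hormone and thyrotropin-releasing hormone. Nkx2-1 patterns the ventral hypothalamus, Nr5a1 and Fezf1 act in the ventromedial nucleus, Rax marks the tanycytes that line the base of the ventricle, and Six6 is known for the suprachiasmatic nucleus.

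Otp was the only member that passed the test in any comparison, and the sequence just upstream of its start is therefore shown. The gene lies on the plus strand of GRCm38 at chr13:94875602-94885130 and has 5 exons over 2 annotated transcripts. The bases before its annotated start, at chr13:94875386-94875601 on the plus strand, are given here from RefSeq (GRCm38.p6).
Otp upstream: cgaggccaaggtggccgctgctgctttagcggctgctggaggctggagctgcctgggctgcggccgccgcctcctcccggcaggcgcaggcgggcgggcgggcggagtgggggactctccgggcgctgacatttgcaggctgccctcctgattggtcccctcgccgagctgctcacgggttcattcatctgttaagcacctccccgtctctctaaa
This stretch of 216 bases held 69.0% G and C. It was searched on both strands for TAATTA, a core of homeodomain sites, for CACTTGA, a core of sites of the NK2 homeodomain family, and for the E-box CACGTG. No motif contains another, and no base is in capitals because no match was found. Of 32851 RefSeq promoters of 300 bases, 5.29% held TAATTA, 3.06% CACTTGA and 7.15% CACGTG. Among the 7 of 9 members matched in that table, the promoter of Nkx2-2 held 1 CACTTGA and 1 CACGTG, and the promoters of the others held none of these letters.

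The other members lie on 5 chromosomes of GRCm38. Sim1 is at chr10:50895651-50989152, Nkx2-1 at chr12:56531958-56536908, Six6 at chr12:72939892-72944899, Fezf1 at chr6:23245044-23248362 and Rax at chr18:65934639-65939089. Nr5a1 is at chr2:38692656-38714542. The NK2 genes Nkx2-4 (chr2:147083316-147085445) and Nkx2-2 (chr2:147177546-147194243) are neighbors on the minus strand, 92.1 kb apart. Nkx2-1, Nkx2-2, Nr5a1 and Rax overlap an annotated antisense gene, and Six6 overlaps the protein-coding 4930447C04Rik on the opposite strand. The library kit kept the strand, but whether counting used it is not stated, so reads of such partners cannot be told apart from those of the member.

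All 9 genes were expressed at low levels. The main measure was the exon-based reads per gene, which were not normalized by the authors and summed to between 5321491 and 7178568 per library. The 9 members together received 85 to 155 of these reads per library. Of the 9, 4 had enough reads to be tested, namely Otp with 329 reads over the 9 libraries, Nkx2-2 with 294, Sim1 with 178 and Nkx2-1 with 164. The 5 others fell below the filter on low counts, with 67 reads for Fezf1, 47 for Nr5a1, 17 for Six6, 15 for Nkx2-4 and 7 for Rax.

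Levels of different genes can be compared per length, as the authors' RPKM, the total exon reads scaled to exon length and to the mapped reads of a library. By the mean over 9 libraries the order was Nkx2-2 (1.07 ± 0.153 RPKM, SD, n = 9), Otp (0.671 ± 0.179), Nkx2-1 (0.357 ± 0.113), Fezf1 (0.166 ± 0.0872), Sim1 (0.142 ± 0.0406), Nr5a1 (0.0673 ± 0.0449), Nkx2-4 (0.0519 ± 0.0459), Rax (0.0311 ± 0.0329) and Six6 (0.0302 ± 0.0135). Every pair of neighbors in this order overlapped in its range over libraries. The first place of Nkx2-2 depended on which reads were counted. Of its 526 total exon reads, on which RPKM is based, 44.1% were not among the exon-based reads, which leave out exon reads marked as not unique unless they span 2 exons, whereas this share was 0.0% for Otp and 10.4% over all genes. By exon-based reads scaled to length and library total, a measure added after the data were seen, Otp (1.97 ± 0.485) stood before Nkx2-2 (1.77 ± 0.294), and Six6 before Rax. Placed among all genes with reads, Nkx2-2 stood above 60.9% of them in RPKM and Six6 above 20.4%.

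**Figure D1:**
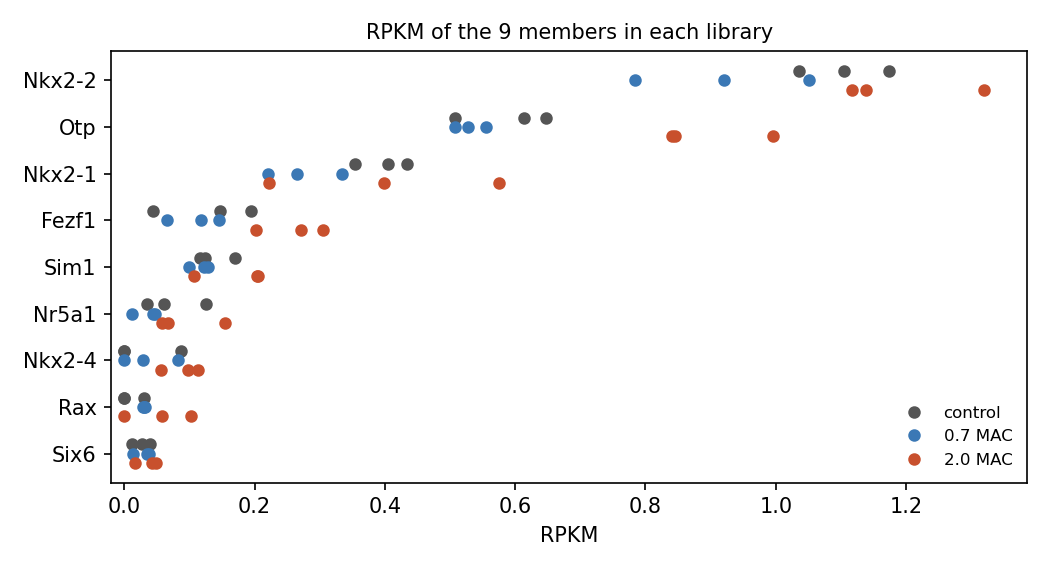
RPKM (horizontal axis) of each of the 9 genes in each of the 9 libraries, 1 point per library, colored by group. Nkx2-2 and Otp hold the highest values, up to 1.32 and 0.996 RPKM, and every gene overlaps the next one in the order.

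Genes of neighboring brain regions were present in all libraries and differed between the groups. Summed over 15 genes of cerebral cortex and hippocampus, the level was 1110 to 1618 normalized CPM (exon-based reads scaled to library totals corrected by the TMM method) in the control group, 1535 to 1785 at 0.7 MAC and 774 to 936 at 2.0 MAC. The 13 striatum genes summed to 1389 to 1748, 1099 to 1691 and 614 to 695 CPM in the same order of groups. The 15 hindbrain genes went the other way in sum, with 196 to 281, 180 to 191 and 308 to 347 CPM. Most of this sum was Slc6a5 and Glra1, with means of 199 and 97.4 CPM at 2.0 MAC. Of the 15, 7 had too few reads to test. The 8 tested ones all had higher fitted levels at 2.0 MAC than at 0.7 MAC, and 5 of them were called. Of all tested genes, 5.98% were called higher in this comparison. No gene of these 3 lists was at 0 throughout a group. Of the anterior pituitary genes, Gh was at 0 in the control libraries, at 1.99 to 6.55 CPM at 0.7 MAC and at 0.138 to 6.78 CPM at 2.0 MAC, and Fshb was at 0 in all libraries. Other genes of this list, namely Prl, Lhb, Pou1f1, Pitx1 and Tbx19, had reads in controls. Pou1f1 and Pitx1, with 6 and 22 reads over all libraries, had their highest group means there, at 0.200 and 0.523 CPM. Of the 10 hypothalamic markers listed for this tissue, which include Hcrt, Pmch, Pomc, Oxt and Avp, all had reads. The part of these regional differences in the results below was not tested. A fit with the cortex and striatum genes as a covariate could not decide it, since 91.3% of the covariate's variance lay between the groups.

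The comparison of 2.0 MAC with 0.7 MAC asks how the tissue differed when the first 30 min were at the gasping dose. Both groups inhaled 0.7 MAC in the last 90 min, so gasping itself is not compared with quiet breathing. Otp was higher at 2.0 MAC, and no other member passed the test. In control libraries Otp stood at 5.41, 4.41 and 5.46 normalized CPM, from 33, 28 and 37 reads. At 0.7 MAC it stood at 4.32, 4.73 and 4.90 CPM, from 31, 29 and 32 reads. At 2.0 MAC it stood at 6.86, 6.94 and 8.15 CPM, from 37, 43 and 59 reads. All 3 libraries of the 2.0 MAC group were therefore above all 6 others, and the control and 0.7 MAC groups overlapped. The group means were 5.09 ± 0.593 CPM in controls, 4.65 ± 0.300 at 0.7 MAC and 7.32 ± 0.720 at 2.0 MAC (SD, n = 3 each). Between 2.0 MAC and 0.7 MAC the log2 ratio of the fitted levels, called log2 change from here on, was 0.66 with a standard error (SE) of 0.18. The adjusted p was 0.0219 by edgeR's quasi-likelihood test with Benjamini-Hochberg adjustment, and the ratio was 1.58-fold with a 95% confidence interval of 1.21 to 2.07. This made 1 of the 4 tested members called, where 14.7% of all 14140 tested genes were called, and 1 of 4 with all libraries higher, where 14.9% of tested genes were. In whole tissue, more cells of a type in the piece taken and more RNA per cell cannot be told apart.

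The call for Otp was not firm. It was lost with DESeq2 (log2 change 0.66, adjusted p = 0.127), without 0.7 MAC replicate 1 (0.61, adjusted p = 0.0779 by edgeR) and without 2.0 MAC replicate 3 (0.57, adjusted p = 0.101 by edgeR), and the change stayed below 2-fold, the fold threshold of the study's methods. With the mean level of 28 cortex and striatum genes as a covariate, the log2 change was 1.38 (SE 0.60, adjusted p = 1.00 by edgeR). In that fit 0 genes of the whole table were called. Since 91.3% of the covariate's variance lay between the groups, the fit cannot separate these regional genes from the groups.

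**Figure D2:**
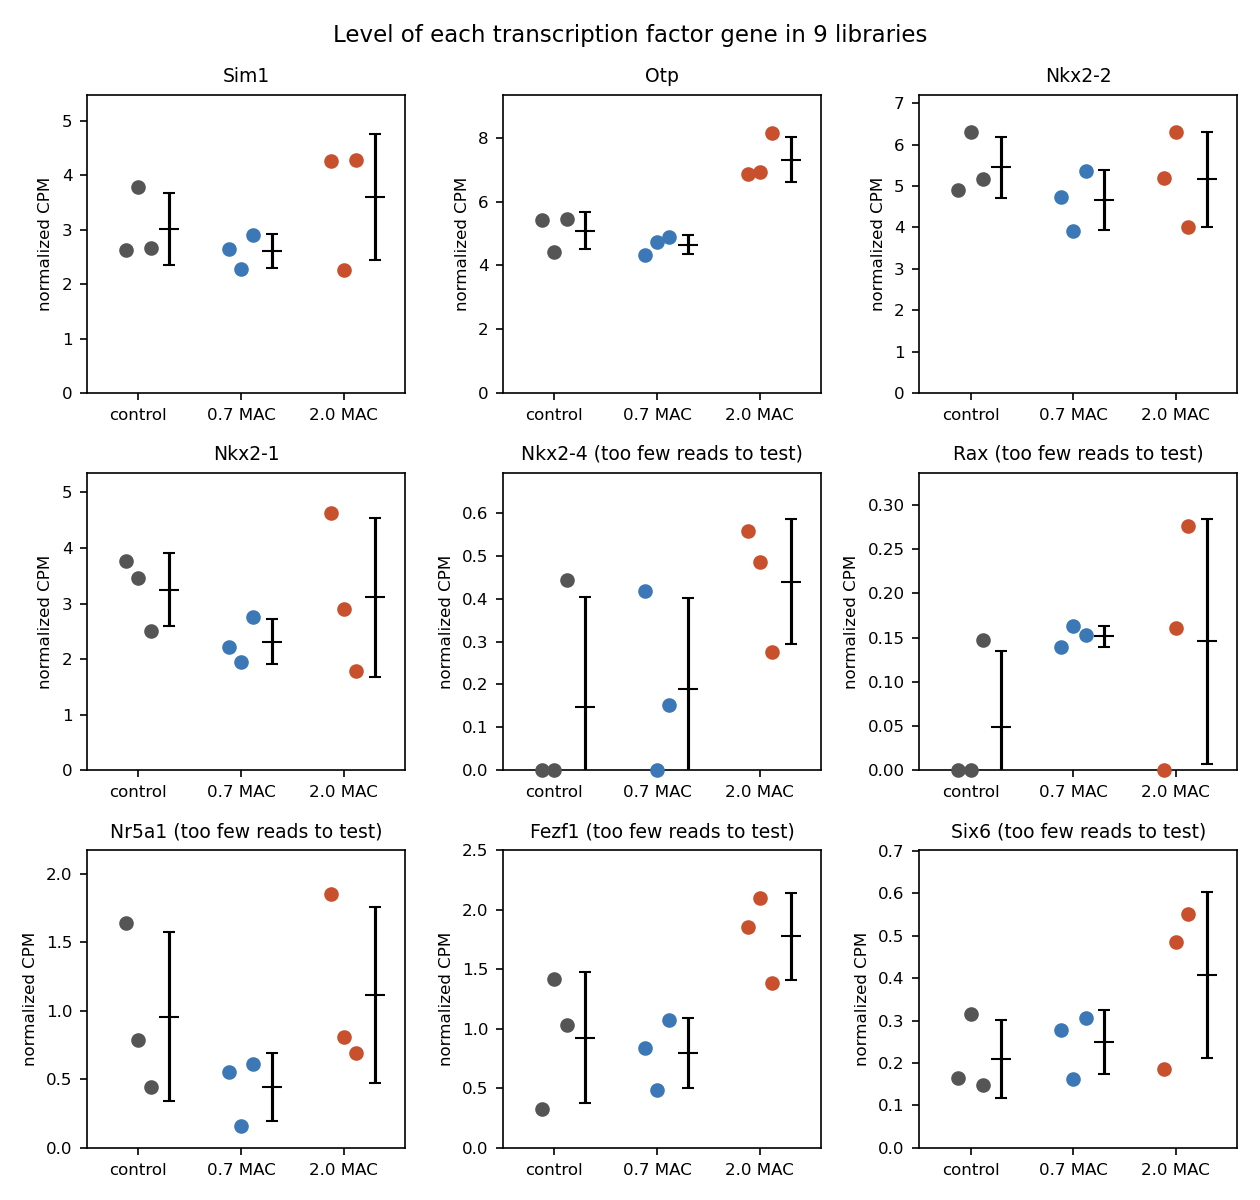
Normalized CPM (vertical axis, from 0, a scale of its own in each panel) of each of the 9 genes by group, 1 point per library, with the mean and SD of 3 libraries beside the points and SD bars cut off at 0. The 3 libraries of 2.0 MAC stand above all others for Otp, with 6.86 to 8.15 CPM, while the groups overlap for the other tested genes.

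Sim1, the partner of Otp in the paraventricular nucleus, did not pass the test. Its levels were 2.62, 3.78 and 2.66 CPM in control libraries and 2.65, 2.28 and 2.91 CPM at 0.7 MAC. At 2.0 MAC they were 4.27, 2.26 and 4.28 CPM. Replicates 1 and 3 of 2.0 MAC thus had the highest Sim1 levels of all 9 libraries and replicate 2 the lowest. The log2 change between 2.0 MAC and 0.7 MAC was 0.46 (SE 0.29, adjusted p = 0.347 by edgeR), with an interval of -0.16 to 1.08. It was 0.29 without 2.0 MAC replicate 3 and 0.70 without 2.0 MAC replicate 2.

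Most peptide genes of the neurons that Sim1 and Otp specify rose in the same comparison. Of the 5 listed genes, which were all tested, 3 rose and 1 fell, with a median log2 change of 0.83 against 0.0038 over all tested genes. Of all tested genes, 5.98% rose and 8.73% fell. The list was chosen with earlier results of these data known, and the paper already lists Crh as higher at 2.0 MAC. The counts and the median are therefore a description only. Oxt, which encodes oxytocin, stood at 5.15, 4.89 and 6.13 CPM at 0.7 MAC and at 9.46, 10.2 and 9.25 CPM at 2.0 MAC. It rose by 0.83 on the log2 scale (SE 0.18, adjusted p = 0.00410 by edgeR). Avp, which encodes vasopressin, likewise had a log2 change of 0.83 (SE 0.22, adjusted p = 0.0148 by edgeR), and Crh, for corticotropin-releasing hormone, of 1.01 (SE 0.22, adjusted p = 0.00502 by edgeR). For each of these 3 genes the 2.0 MAC libraries lay above all 0.7 MAC libraries, as they did for 14.9% of all tested genes. Trh, for thyrotropin-releasing hormone, had a log2 change of 0.60 (adjusted p = 0.0600 by edgeR). Sst, for somatostatin, fell by 0.53 (adjusted p = 0.00149 by edgeR). Somatostatin is made in the periventricular hypothalamus and also by interneurons elsewhere in the forebrain. Summed over the 5 genes, the level was 60.0 to 76.0 CPM at 0.7 MAC and 71.8 to 73.5 CPM at 2.0 MAC, of which Sst alone held 46.1 ± 4.92 and 31.9 ± 2.31 CPM (SD, n = 3 each).

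**Figure D3:**
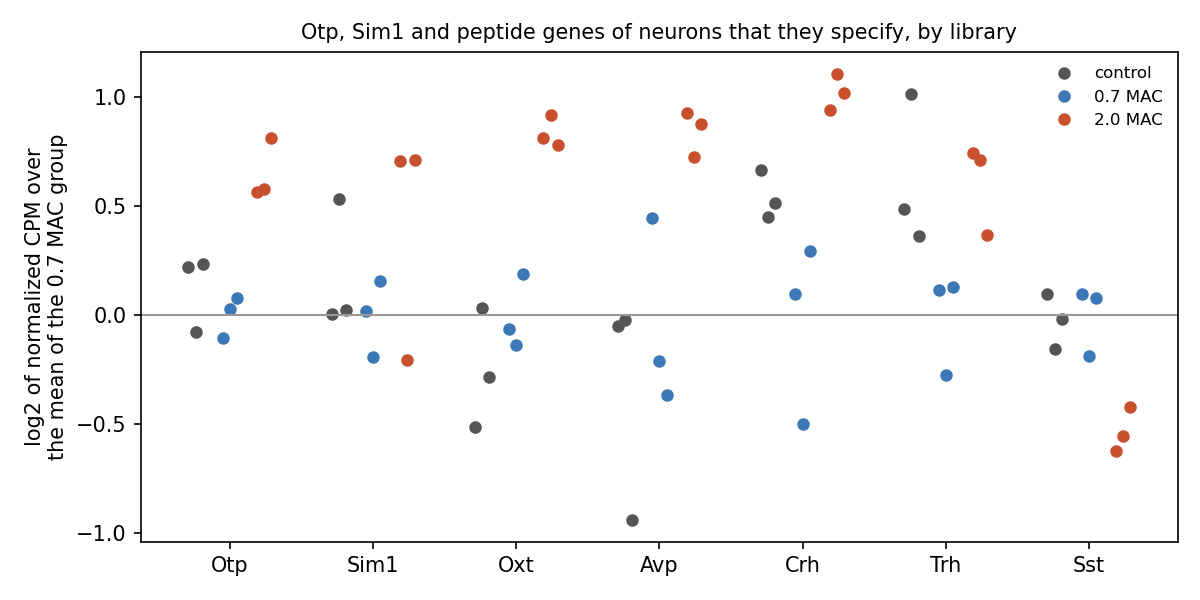
Log2 of normalized CPM over the mean of the 0.7 MAC group (vertical axis) for Otp, Sim1 and 5 peptide genes, 1 point per library, colored by group. The 2.0 MAC libraries lie above all 0.7 MAC libraries for Otp, Oxt, Avp, Crh and Trh and below them for Sst, while Sim1 has 1 of its 3 libraries at 2.0 MAC below.

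The members of the NK2 homeodomain family did not pass the test. Nkx2-1, which also directs the thyroid, the lung and interneurons of the ventral telencephalon, stood at 3.77, 3.46 and 2.51 CPM in control libraries. It was at 2.23, 1.96 and 2.76 CPM at 0.7 MAC and at 4.64, 2.91 and 1.80 CPM at 2.0 MAC. The 2.0 MAC group held both the highest and the lowest library. Its log2 change between 2.0 MAC and 0.7 MAC was 0.37 (SE 0.34, adjusted p = 0.540 by edgeR), with an interval of -0.34 to 1.09. It was 0.0013 without 2.0 MAC replicate 1 and 0.68 without 2.0 MAC replicate 3. A list of 6 genes of thyroid and lung, where Nkx2-1 also acts, summed to 2.61 to 5.94 CPM over all libraries, and only Pax8, which the brain expresses too, had enough reads to be tested.

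Nkx2-2 marks a ventral band of the neural tube and is also needed for oligodendrocyte precursors to mature. It stood at 4.91, 6.30 and 5.17 CPM in control libraries, at 4.74, 3.91 and 5.36 CPM at 0.7 MAC and at 5.19, 6.29 and 4.00 CPM at 2.0 MAC. The ranges of the 3 groups overlapped one another. The log2 change between 2.0 MAC and 0.7 MAC was 0.13 (SE 0.22, adjusted p = 0.771 by edgeR), with an interval of -0.35 to 0.60. With other reads it was larger, at 0.41 by total gene reads (adjusted p = 0.0549 by edgeR) and 0.28 by total exon reads (adjusted p = 0.286 by edgeR), and limma gave 0.35 on RPKM plus 0.1 (adjusted p = 0.0797). Beside it, 4 of 9 oligodendrocyte precursor genes and 7 of 8 myelin genes rose in this comparison and none of these 17 fell. Over all tested genes, 5.98% rose. At 0.7 MAC against control 1 of the 9 and 2 of the 8 fell. At 2.0 MAC against control 0 of the 9 and 1 of the 8 rose. Over all tested genes, 0.743% fell in the former comparison and 3.36% rose in the latter. Among those that rose between 0.7 MAC and 2.0 MAC were Sox10, a factor of the oligodendrocyte lineage, with a log2 change of 0.59 (adjusted p = 0.000724 by edgeR), and Olig2 with 0.49 (adjusted p = 0.00401 by edgeR). Against control, Sox10 was lower at 0.7 MAC (log2 change -0.56, adjusted p = 0.0107 by edgeR) and hardly differed at 2.0 MAC (0.024, adjusted p = 0.923 by edgeR). Olig2 was called in neither comparison with control. Nkx2-4, the close relative of Nkx2-1, had 0, 0 and 3 reads in controls, 3, 0 and 1 at 0.7 MAC and 3, 3 and 2 at 2.0 MAC, too few to test.

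The factors of the ventromedial nucleus had few reads, with their highest group means at 2.0 MAC. Fezf1, a zinc-finger factor that acts in the development of this nucleus, had 2, 9 and 7 reads in controls, 6, 3 and 7 at 0.7 MAC and 10, 13 and 10 at 2.0 MAC. In normalized CPM this was 0.926 ± 0.552, 0.799 ± 0.293 and 1.78 ± 0.365 (SD, n = 3 each), and the 2.0 MAC libraries lay above all 0.7 MAC libraries but not above all controls. Nr5a1, also called steroidogenic factor 1, which the adrenal gland and gonads use as well, had 10, 5 and 3 reads in controls. It had 4, 1 and 4 reads at 0.7 MAC and 10, 5 and 5 at 2.0 MAC, so that the groups differed by 1 read at the nearest point. When the filter on low counts was dropped, Fezf1 had a log2 change of 1.11 (SE 0.49, adjusted p = 0.148 by edgeR) and Nr5a1 of 1.22 (SE 0.63, adjusted p = 0.268 by edgeR). In that fit all 9 members had a positive log2 change, 1 was called, again Otp, where 10.9% of 22435 genes were called. Some of these signs rest on very few reads, with 0.060 (SE 1.31) for Rax, 0.71 (SE 0.94) for Six6 and 1.02 (SE 0.998) for Nkx2-4. In the main fit 7171 of 14140 tested genes had a positive log2 change. For 3 members, Otp, Fezf1 and Nr5a1, the 2.0 MAC libraries were all higher, and this held for 10.4% of the 22435 genes.

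Genes used by ventromedial neurons gave no common direction. Of the 7 listed, all tested, 1 rose and 2 fell between 0.7 MAC and 2.0 MAC, with a median log2 change of 0.20. Over all tested genes, 5.98% rose and 8.73% fell. Slc17a6, the vesicular glutamate transporter of subcortical neurons, had a log2 change of 0.62 (adjusted p = 5.00e-05 by edgeR). Gda, a guanine deaminase that is also abundant in forebrain, fell by 1.44 (adjusted p = 1.12e-05 by edgeR), and Nptx2, a synaptic pentraxin, by 0.47 (adjusted p = 0.0117 by edgeR).

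Rax and Six6 were at the limit of detection. Rax had 0, 0 and 1 reads in controls, 1, 1 and 1 at 0.7 MAC and 0, 1 and 2 at 2.0 MAC. Six6 had 1, 2 and 1 reads in controls, 2, 1 and 2 at 0.7 MAC and 1, 3 and 4 at 2.0 MAC. At this depth no difference between groups could be detected for either. At 2.0 MAC against 0.7 MAC 8.73% of all tested genes fell. Of the 7 tested genes on a list of other tanycyte genes, 0 rose and 2 fell in this comparison. Among them was Crym, a thyroid hormone binding protein that forebrain neurons also express, which fell by 1.80 (adjusted p = 4.72e-06 by edgeR). The only listed suprachiasmatic gene with enough reads, Vip, fell by 0.98 (adjusted p = 0.00807 by edgeR), and cortical interneurons make this peptide too.

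Taken as a sum, the reads of the 9 members were highest at 2.0 MAC, as a description without a test. In normalized CPM they summed to 18.0 to 20.5 in controls, 13.9 to 18.2 at 0.7 MAC and 21.4 to 25.4 at 2.0 MAC, so that the first 2 groups overlapped and the 2.0 MAC libraries lay above both. Scaled to the library total without TMM, the ranges were 17.9 to 20.4, 13.8 to 17.7 and 21.7 to 25.7 CPM, and the controls then lay just above 0.7 MAC. Without Otp the latter sum was 12.5 to 16.0, 9.11 to 13.0 and 13.5 to 18.8 CPM, so that the 2.0 MAC libraries stayed above those of 0.7 MAC but overlapped the controls.

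The comparison of 0.7 MAC with control asks what a lighter dose changed. No member was called, 0 of 4 at an adjusted p under 0.05 and 0 of 4 at an unadjusted p under 0.05 by edgeR, where 1.63% of all tested genes were called. DESeq2 and limma on RPKM also called 0. All 4 fold changes were negative, with log2 values of -0.48 for Nkx2-1 (SE 0.33, adjusted p = 0.546 by edgeR), -0.22 for Nkx2-2, -0.20 for Sim1 and -0.13 for Otp. Their median was -0.21, against -0.0027 over all tested genes. The widest interval, that of Nkx2-1, ran from -1.18 to 0.23, and that of Otp from -0.55 to 0.28. With 1 library left out the values stayed negative but ranged from -0.29 to -0.012 for Sim1, with the smallest size without control replicate 2, from -0.33 to -0.11 for Nkx2-2, from -0.64 to -0.36 for Nkx2-1 and from -0.23 to -0.078 for Otp. The peptide genes of the paraventricular and supraoptic nuclei gave 0 calls among 5 in this comparison.

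The comparison of 2.0 MAC with control gave 0 calls among the 4 tested members by edgeR and by DESeq2, where edgeR called 9.78% of all tested genes. At an unadjusted p under 0.05 by edgeR 1 member passed, Otp, with a log2 change of 0.53 (SE 0.18, adjusted p = 0.0830), a 1.44-fold difference with an interval of 1.10 to 1.88. Its 2.0 MAC libraries were all higher than the controls, as they were for 13.1% of tested genes. Limma on the log2 of RPKM called this difference, with adjusted p = 0.0303 at a pseudocount of 0.1. Sim1 had a log2 change of 0.26 (SE 0.29, and 0.091 to 0.50 with 1 library left out), Nkx2-1 of -0.10 (0.32) and Nkx2-2 of -0.092 (0.22). For comparison, 2 of the 5 peptide genes rose over control, Oxt by 1.07 (adjusted p = 0.00129 by edgeR) and Avp by 1.13 (adjusted p = 0.00371 by edgeR), and Sst fell by 0.50 (adjusted p = 0.00360 by edgeR). Over all tested genes, 3.36% rose and 6.42% fell. Both comparisons with 2.0 MAC share its libraries, so they are not independent of each other.

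**Figure D4:**
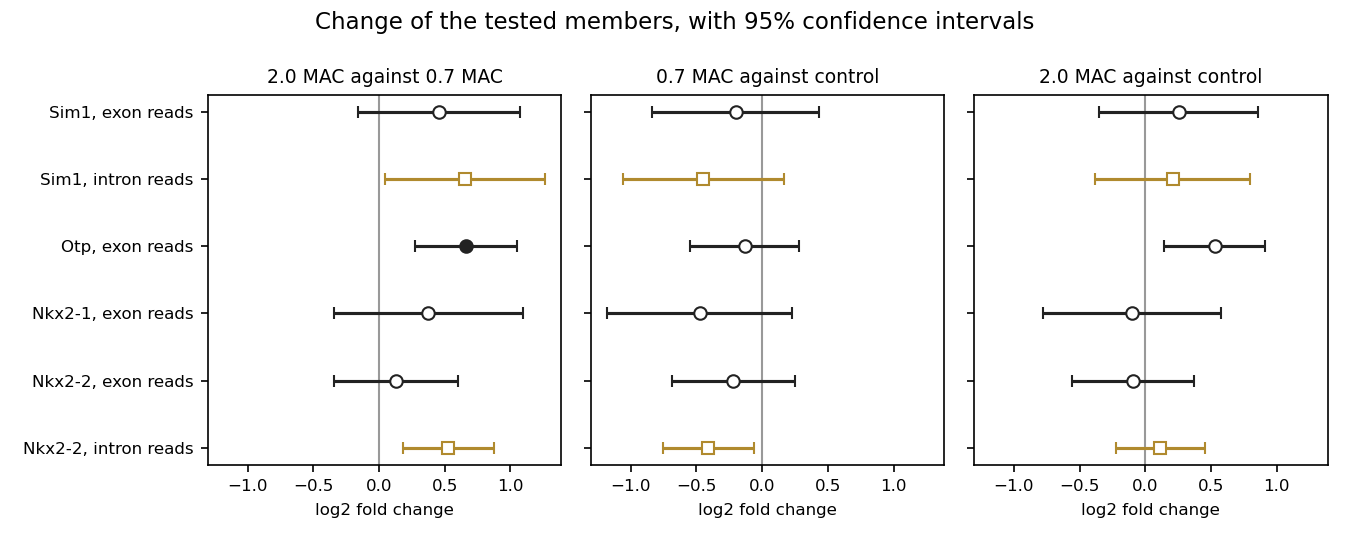
Log2 fold change (horizontal axis) with its 95% confidence interval for the tested genes in 3 comparisons, from exon reads (circles) and intron reads (squares), filled where the adjusted p was under 0.05. The only filled point is Otp between 2.0 MAC and 0.7 MAC, at 0.66.

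Intron reads, which come mostly from unspliced RNA, could be tested for Nkx2-2 and Sim1. Nkx2-2 overlaps antisense genes, among them Nkx2-2os, and whether counting used the strand is not stated. Its intron reads may therefore include reads of these genes. At 2.0 MAC the intron level of Nkx2-2 was 7.85, 8.27 and 8.24 normalized CPM, against 5.44, 4.78 and 6.68 CPM at 0.7 MAC and 8.89, 6.57 and 7.08 CPM in controls. The 0.7 MAC group was low and did not overlap the 2.0 MAC group. The exon-based reads of this gene did overlap between these groups. In RPKM, which is based on its total exon reads, the 2.0 MAC libraries also lay above all 0.7 MAC libraries. Whether introns and exons differ here thus depends on which exon reads are counted. The log2 change between 2.0 MAC and 0.7 MAC was 0.53 (SE 0.16, adjusted p = 0.0711 by edgeR), and that between 0.7 MAC and control was -0.41 (SE 0.16, adjusted p = 0.176 by edgeR). For Sim1 the intron levels were 4.44, 3.68 and 3.08 CPM at 0.7 MAC and 5.77, 7.07 and 4.89 CPM at 2.0 MAC, again without overlap. Its log2 change was 0.65 (SE 0.28, adjusted p = 0.209 by edgeR). Thus 0 of 2 members were called by intron reads, where 6.86% of 16142 genes were, both had an unadjusted p under 0.05 by edgeR in this comparison, and both were without overlap, where 12.4% of genes were higher in this way. DESeq2 was not run on intron reads. Against control, the 0.7 MAC group had 0 of 2 calls, where 4.23% of genes were called, and 1 member, Nkx2-2, at an unadjusted p under 0.05 by edgeR. For 2.0 MAC against control the log2 change of introns was 0.12 for Nkx2-2 (adjusted p = 0.713 by edgeR) and 0.21 for Sim1 (adjusted p = 0.701 by edgeR). Otp received 2 to 12 intron reads per library and could not be tested in this way.

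The tested members varied unequally within groups. The SD of log2 level within groups was 0.41 for Nkx2-1, 0.33 for Sim1, 0.24 for Nkx2-2 and 0.13 for Otp, with a median of 0.13 over all tested genes, which had a median level of 26.3 CPM. Otp, at a mean level of 5.69 CPM, thus had an SD like that of the median gene. Its 28 to 59 reads per library and 3 libraries a group leave this SD uncertain. A small count added before the log2 step also damps the SD of genes with few reads. The value therefore does not show that Otp is a steady gene.

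Likeness of pattern was measured as the root mean square difference over the 9 libraries in log2 level, after each gene's own mean was taken away. Among the members, Nkx2-1 and Nkx2-2 were the closest pair (0.30) and Sim1 and Otp the next (0.33), while Nkx2-1 and Otp were the most distant (0.47). These distances are not small, since the median gene stood at 0.27 from Nkx2-2, 0.35 from Sim1 and 0.41 from Nkx2-1. Of all other genes, Tmbim1 (0.0884) and Serpinb1b (0.0957) were most like Otp, where the median gene stood at 0.33. Bola1 and Lrrc27 were nearest to Sim1, Spata5l1 and Kcnk6 to Nkx2-1, and Poglut1 and Slc25a15 to Nkx2-2. The mean profile of the 4 tested members was most like those of Fstl1 (0.0525), Eif5a2, Cnp, Glra3 and Plcl1. Cnp, an enzyme of myelin, rose by 0.41 (adjusted p = 0.00108 by edgeR) between 0.7 MAC and 2.0 MAC.

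Other transcription factors of the hypothalamus formed a list of 38 genes, of which 25 could be tested. Between 0.7 MAC and 2.0 MAC 4 rose and 3 fell, with a median log2 change of 0.16. Over all tested genes, 5.98% rose and 8.73% fell. The exon-based reads left out most exon reads of some listed genes. They kept 1 of 2077 total exon reads for Sox2, which was therefore not tested, and 74 of 946 for Dlx1. Zfhx3, a factor of the suprachiasmatic nucleus and many other neurons, had 190 ± 10.2 CPM at 0.7 MAC and 275 ± 13.3 CPM at 2.0 MAC (SD, n = 3 each), a log2 change of 0.53 (adjusted p = 5.77e-05 by edgeR). Lhx9, a LIM homeodomain factor, rose by 0.60 (adjusted p = 0.00162 by edgeR). Lhx6, of hypothalamic and cortical interneurons, fell by 0.89 (adjusted p = 0.00189 by edgeR). Arnt2, the dimerization partner of Sim1 and named here after its values were seen, was far more abundant than Sim1 in reads and had 288 ± 21.2 CPM at 0.7 MAC and 272 ± 5.08 CPM at 2.0 MAC, a log2 change of -0.084 (adjusted p = 0.368 by edgeR). At 0.7 MAC against control 0 of the 25 rose and 1, Zfhx3, fell (log2 change -0.32, adjusted p = 0.0264 by edgeR). At 2.0 MAC against control 0 rose and 2 fell, among them Lhx6 (log2 change -0.70, adjusted p = 0.0170 by edgeR). Over all tested genes, 0.743% fell at 0.7 MAC against control and 6.42% at 2.0 MAC against control.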

How the data were processed

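RNA was sequenced from 9 libraries, 3 per group, after ribosomal RNA depletion. In the methods of the study, CLC Genomics Workbench aligned reads to the mouse build GRCm38/mm10. The authors deposited whole-number counts per gene (exon-based, total exon, intron and total gene reads) and RPKM. RPKM followed from total exon reads, exon length and mapped reads in 100% of genes, within 0.1%. For the annotation release, no source used here gives one. Of 126 columns of values per library, 72 were not used, among them the authors' transformed and group values, and the authors' own fold changes and p-values were left aside.

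The main fit used exon-based counts and edgeR 4.0.16 (R 4.3.3). Low genes were dropped with filterByExpr (minimum count 10), TMM scaled the libraries, and 1 model of group covered all 9. Calls rested on the quasi-likelihood test at an adjusted p under 0.05 over 14140 genes, and intron reads were treated alike. Exon-based reads numbered 5321491 to 7178568 per library (median 6382725). The steps were tested on simulated data. Libraries that share a replicate number were not paired, since their residuals correlated at -0.211 to -6.85e-05.

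The members and the gene lists were chosen with earlier results of these data known. Named genes are the members, per comparison the called genes of each list with the smallest adjusted p (4 at most), and the genes most like the members in pattern (2 per tested member and 5 for their mean, from a mean level of 1 CPM). A few genes that this rule names are not reported here. The alternatives covered the tool (DESeq2 1.42.0, or limma 3.58.1 fitted to log2 of RPKM plus 0.1 or plus 1), scaling (upper quartile, plain totals), the filter (none, or a minimum of 30), total gene reads, only 6 libraries, a replicate block, cortex and striatum genes as covariate, a 2-fold threshold, and omission of single libraries. Total exon reads and exon-based reads scaled to length, were tried only once the data had been seen.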

Additional observations from a re-analysis of the deposited data

How the results depend on the processing

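Otp kept its direction between 2.0 MAC and 0.7 MAC in 21 of 21 alternatives, and 1 member was called in 17 of 22. The count of called members was 0 instead of 1 with DESeq2, with the covariate, at a fold of at least 2, and without 0.7 MAC replicate 1 or 2.0 MAC replicate 3, so that it ranged from 0 to 1 with 1 library left out. The fit with the covariate called 0 genes of the whole table, so the loss of the call there says nothing particular to Otp. With 1 library left out, the log2 change of Otp ranged from 0.57 to 0.71. Leaving out a control library, which is in neither group compared, hardly moved it and says little. Where a library of 0.7 MAC or 2.0 MAC was left out and the call stayed, the adjusted p was 0.0400 to 0.0480 by edgeR. Between 2.0 MAC and control the count was 1 instead of 0 with limma at both pseudocounts. With the replicate block the count for 2.0 MAC against 0.7 MAC stayed at 1, and the block turned no other call of a member, while over all genes it left 46 higher and 30 lower genes between 0.7 MAC and control against 125 and 105 without it. Small fold changes turned sign. For Nkx2-2 between 2.0 MAC and 0.7 MAC the value was -0.53 with the covariate (SE 0.69). It ranged from -0.045 (without 2.0 MAC replicate 2) to 0.30 with 1 library left out. At 2.0 MAC against control, Nkx2-1 was at 0.032 by total gene reads and ranged from -0.47 to 0.21 with 1 library left out. Nkx2-2 there was at 0.071 by total gene reads, 0.098 and 0.057 by limma, 0.033 by total exon reads, and ranged from -0.27 to 0.081 with 1 library left out. The cause of these shifts was not tested. Scaling moved the split of all called genes between 2.0 MAC and 0.7 MAC from 845 higher and 1235 lower to 1128 and 1029 with upper-quartile scaling, 1087 and 1077 with library totals, and 1705 and 723 or 1739 and 714 with limma. Few reads per member limit these values, and the 5 untested members cannot show changes of moderate size at this depth.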
